A study of Mus musculus with 11 samples.

Results

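Dcx, Tubb3, Stmn2, Map2, Mapt, Gap43, Ina, Nefl, Nefm and Dpysl3, genes of the neuronal cytoskeleton and the growth cone, were followed in forebrain RNA from mouse embryos with and without Kif20a, a kinesin of late cell division. The genes were taken by symbol, and all 10 were found once in each of the 2 tables of 20475 genes. All embryos were collected at E12.5, when the cortical wall holds dividing progenitors and its earliest neurons. The germline comparison held 3 wild-type libraries and 3 libraries of knockout-first embryos, in which a LacZ and neomycin cassette interrupts Kif20a after the fourth exon, in a line that came from 1 embryonic stem cell clone. The inducible comparison held 2 libraries labelled wild type and 3 labelled conditional knockout. The study describes the latter as Nestin-CreERT2; Kif20a fl/fl embryos and their controls as Kif20a fl/fl littermates, all from dams given tamoxifen on consecutive days before collection. Nestin drives CreERT2 mainly in neural progenitors, so the deletion is directed mainly to these cells and the neurons they form after tamoxifen. The labels do not say whether a library is 1 embryo or a pool, so the p-values measure the spread between these libraries. The labels name the tissue forebrain and the study names it cortex.

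Newborn neurons lay down parallel microtubules in a growing process. Tubb3 is a beta-tubulin of neurons, Dcx (doublecortin), Map2 and Mapt (tau) bind and stabilize microtubules, and Stmn2 is a stathmin that binds tubulin and favours disassembly. Gap43 lies under the growth cone membrane and Dpysl3 is a collapsin response mediator protein that links guidance signals to the cytoskeleton. Ina (alpha-internexin), Nefl and Nefm form neuronal intermediate filaments, of which Ina is known to appear early and the neurofilament subunits later. All of them are standard markers of differentiating neurons, so in whole tissue fewer neurons and less RNA per neuron cannot be told apart.

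To show what lies ahead of the start sites of these genes, RefSeq promoter sequences were read for the 4 of 10 members in the table given (Dcx, Tubb3, Map2 and Ina), from build GRCm38.p6. The 250 bases ahead of the start are printed 5′ to 3′ on the strand of the gene. The windows are chrX:143933220-143933469 on the minus strand for Dcx, at the first of its 2 listed starts, and, on the plus strand, chr8:123411303-123411552 for Tubb3, chr1:66175079-66175328 for Map2 and chr19:47014431-47014680 for Ina. Capitals mark matches to 4 motifs searched on both strands, namely CAGCTG and CAGATG (forms of the E-box bound by neuronal bHLH factors), ACAAAG (bound by SOX factors) and TATAA, the core of the TATA box. Matches of TATAA on the 2 strands overlap where both stand in 1 run.
Dcx: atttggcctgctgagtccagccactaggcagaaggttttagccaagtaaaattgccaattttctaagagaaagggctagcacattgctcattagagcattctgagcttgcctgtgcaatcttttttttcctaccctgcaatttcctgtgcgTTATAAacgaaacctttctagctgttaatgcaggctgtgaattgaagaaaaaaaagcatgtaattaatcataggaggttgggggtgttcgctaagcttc
Tubb3: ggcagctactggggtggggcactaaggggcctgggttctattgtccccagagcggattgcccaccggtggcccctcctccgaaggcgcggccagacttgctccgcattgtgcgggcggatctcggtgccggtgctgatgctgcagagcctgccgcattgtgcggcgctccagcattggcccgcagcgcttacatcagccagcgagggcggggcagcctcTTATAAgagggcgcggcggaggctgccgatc
Map2: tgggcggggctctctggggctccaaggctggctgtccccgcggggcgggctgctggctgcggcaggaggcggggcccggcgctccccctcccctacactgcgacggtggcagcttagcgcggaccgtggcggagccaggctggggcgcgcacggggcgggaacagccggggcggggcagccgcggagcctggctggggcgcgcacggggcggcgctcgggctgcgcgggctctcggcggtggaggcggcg
Ina: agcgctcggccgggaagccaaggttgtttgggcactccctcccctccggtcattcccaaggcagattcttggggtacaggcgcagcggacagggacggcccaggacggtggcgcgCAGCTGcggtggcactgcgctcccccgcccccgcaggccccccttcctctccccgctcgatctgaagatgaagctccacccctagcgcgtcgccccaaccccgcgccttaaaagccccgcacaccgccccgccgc
TATAA began 30 bases ahead of the start in Tubb3 and 98 bases ahead in Dcx, each time inside a run read on both strands, and 22.8% of the 32851 promoters in the table held it. The Ina window held CAGCTG, found in 13.0% of promoters, 135 bases ahead of the start. CAGATG (14.4% of promoters) and ACAAAG (16.5%) had no match in the 4 windows, and Map2 held none of the motifs. The windows differed in base composition, with a GC content of 41.6% for Dcx, 68.0% for Tubb3, 70.8% for Ina and 81.2% for Map2 against a median of 52.4% over all promoters. The matches describe these letters only. The other members (Stmn2, Mapt, Gap43, Nefl, Nefm and Dpysl3) are named here without a promoter.

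Levels were compared between genes per kilobase of exon, using gene models of NCBIM37, the mm9 assembly of the study (GENCODE vM1). The study counted reads over RefSeq exons, whose lengths may differ, and the order of the genes depends on the lengths used. The values are normalized counts per kilobase as the mean of the wild-type libraries, with their range. In the germline wild type, Tubb3 was the most abundant at 4879 (4344 to 5608). It lies on chromosome 8 from 125935324 to 125945915. Stmn2 followed at 2498 (1973 to 2831) and Dpysl3 at 2003 (1640 to 2244), and their ranges overlapped. Gap43 at 1057 (635 to 1346), Dcx at 987 (942 to 1024) and Map2 at 834 (787 to 871) came next. Dcx and Map2, the latter listed as Mtap2 in this annotation, did not overlap each other, whereas Gap43 overlapped both. Ina at 526 (330.0 to 686) overlapped Gap43 and Mapt, which stood at 301 (214 to 386). Nefl at 75.1 (57.9 to 103) and Nefm at 59.5 (48.3 to 71.0) were the lowest and overlapped each other. In the inducible wild type the order also began with Tubb3, at 10226 (9338 to 11114), and ended with Nefm at 150.5 (124 to 177) and Nefl at 86.8 (49.5 to 124). Map2 and Dcx have long gene models with many isoforms, which lowers a value per kilobase. On NCBIM37, Nefl (chromosome 14, 68701920 to 68707152, plus strand) and Nefm (68700647 to 68742903, minus strand) share 1108 exon bases, and Ina (chromosome 19, 47089188 to 47099817) shares 456 with Nt5c2 on the opposite strand. Whether the RefSeq exons that the study counted share these bases was not checked. If they do, such reads cannot be assigned to 1 gene, since no strand setting is given. Tubb3 is also close in sequence to other beta-tubulins, and how reads that match several genes were treated is not given beyond default settings.

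The libraries themselves differed before any comparison. Kif20a stood at 2295 to 2680 normalized counts in germline wild type and 374 to 503 in knockout (log2 fold change -2.54 ± 0.15 SE, limma adjusted p = 0.00845), and at 4760 to 4844 against 2853 to 3125 in the inducible comparison (-0.70 ± 0.06, limma adjusted p = 0.0107). Germline knockout replicate 2 stood apart. Its 8 cranial mesenchyme genes summed to 509 normalized counts, against 4764 to 8398 in wild type and 20082 and 10342 in knockout replicates 1 and 3. Its 6 microglia genes summed to 15.8 (wild type 383 to 583) and its 6 erythroid genes to 21798 (wild type 63954 to 92875). Diencephalon genes summed to 5894 in knockout replicate 1, against 1091 to 2059 in wild type, and to 1559 and 1832 in the others. The germline counts of genes past the thresholds below are therefore given with and without knockout replicate 2.

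None of the 10 genes passed a fold change of 1.5 with an unadjusted p of 0.05 between germline knockout and wild type. The knockout libraries lay on both sides of the wild type. Across the 10 genes, knockout replicate 1 lay below every wild-type library for 8, knockout replicate 3 below every one for 9, and knockout replicate 2 above every one for 9. The groups overlapped for all 10, where 13.5% of all 13938 genes tested had groups that did not overlap. Past the thresholds were 0.667% of genes tested in the lower and 2.07% in the higher direction. The median log2 fold change of the 10 was -0.26, against -0.04 over all genes tested, with 8 below 0 and unadjusted limma p between 0.241 and 0.771, so 0 were at or under 0.05.

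**Figure D1:**
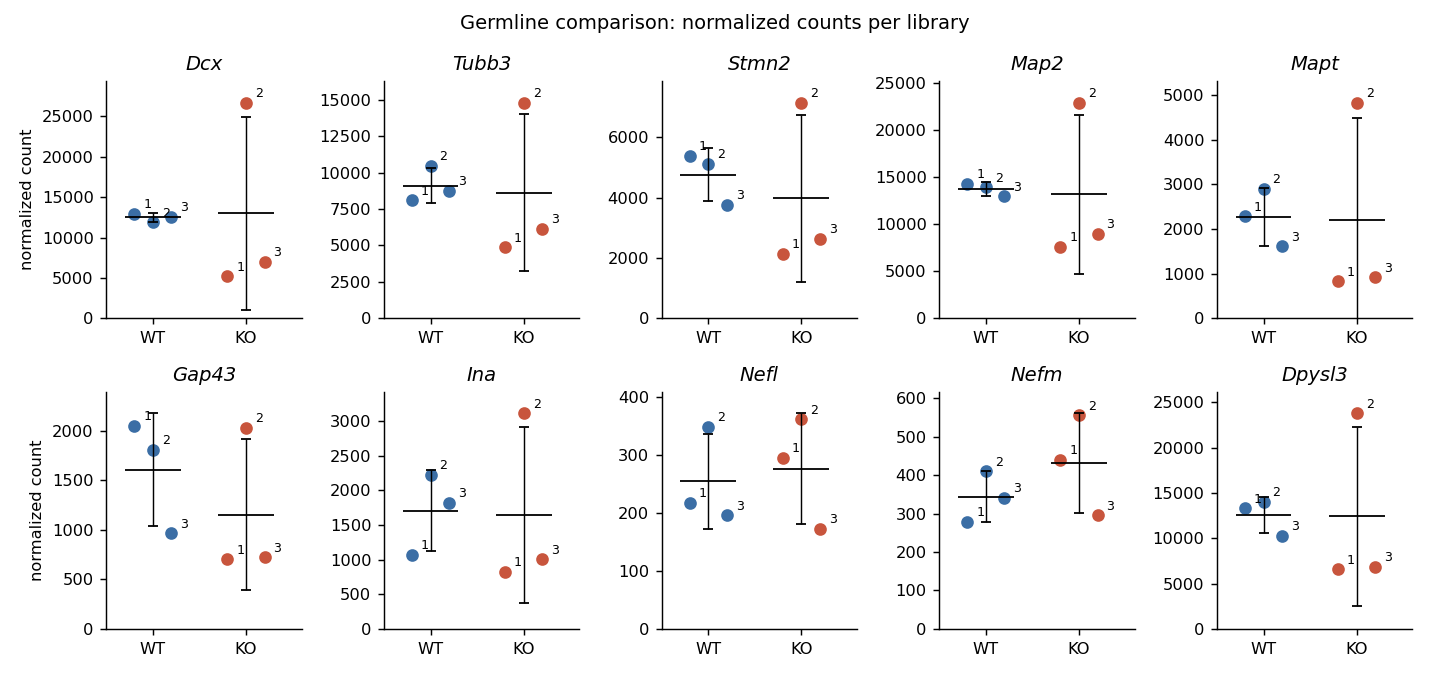
Normalized counts (vertical axis, from 0) of the 10 genes in each germline library, with wild type (WT) and Kif20a knockout (KO) side by side and replicate numbers beside the points. Horizontal lines are group means and bars ±1 SD (n = 3 and 3, cut at 0 for Mapt). Knockout replicate 2 lies above every wild-type library for 9 of the 10 genes, and knockout replicate 3 below every one for 9.

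Among the genes that build and stabilize microtubules, Dcx was the most even in wild type and among the most uneven in knockout. Its wild-type libraries measured 12956, 11915.5 and 12600.1 normalized counts and its knockout libraries 5224, 26719 and 6998, in the order of their replicate numbers. Knockout replicates 1 and 3 thus held 41.8% and 56.0% of the wild-type mean and replicate 2 214%. The highest knockout library was 5.11-fold above the lowest, against 1.09-fold in wild type. On the log2 scale the SD was 1.26 in knockout and 0.06 in wild type, and 6.49% of all genes tested had a larger SD in knockout. The means of Dcx were 12490.5 ± 529 in wild type and 12980.4 ± 11931 in knockout (SD, n = 3 and 3), and the log2 fold change was -0.33 ± 0.56 (SE, 95% interval -1.64 to 0.98, limma adjusted p = 0.887). Map2, which marks dendrites later on, measured 14320.3, 13909.6 and 12944 in wild type and 7598, 22922 and 8982 in knockout (-0.24 ± 0.39, interval -1.16 to 0.68). Mapt had the widest range of the 10 genes in knockout, 5.79-fold, with 2288, 2906 and 1613 in wild type and 836, 4838 and 920.3 in knockout (-0.51 ± 0.65, interval -2.05 to 1.03). Tubb3, the tubulin itself, measured 8114, 10476 and 8753 in wild type and 4888, 14813 and 6147 in knockout (-0.25 ± 0.39, interval -1.17 to 0.67). In all 4 genes, knockout replicates 1 and 3 lay below and replicate 2 above every wild-type library.

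Stmn2, the gene of tubulin turnover, and the growth cone genes Dpysl3 and Gap43 followed with 1 difference. Stmn2 measured 5391, 5124 and 3757 in wild type and 2136, 7146 and 2628 in knockout, a log2 fold change of -0.46 ± 0.43 (interval -1.48 to 0.57). Dpysl3 measured 13309.8, 14057 and 10274 in wild type and 6584, 23794 and 6849 in knockout (-0.28 ± 0.48, interval -1.42 to 0.86). Both again had 2 knockout libraries under and 1 over all wild-type libraries. Gap43 was the exception among the genes high in knockout replicate 2. Its wild-type libraries held 2051, 1810.0 and 968 and its knockout libraries 705, 2033 and 721, so replicate 2 lay just under the highest wild-type library. Gap43 had the lowest fitted fold change of the 10 (-0.60 ± 0.47, interval -1.70 to 0.50, limma adjusted p = 0.805), and its wild-type libraries alone spanned 2.12-fold.

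The intermediate filament genes divided. Ina resembled the microtubule genes, with 1069, 2224 and 1822 in wild type and 824, 3109.8 and 1008 in knockout (-0.25 ± 0.52, interval -1.47 to 0.97). Its wild-type replicate 1 lay close to knockout replicate 3. The neurofilament subunits did not share the low value in knockout replicate 1. Nefl measured 217, 348 and 196 in wild type and 294, 361 and 173 in knockout (0.10 ± 0.34), and Nefm 279, 411 and 342 and 440.4, 556 and 296 (0.30 ± 0.27). Knockout replicate 1 held 116% of the wild-type mean of Nefl and 128% of that of Nefm, while Tubb3 stood at 53.6% there. As a percentage of Tubb3 in the same library, Nefl was 6.02% in knockout replicate 1 against 2.24% to 3.32% in wild type, and Nefm 9.01% against 3.44% to 3.92%. In knockout replicates 2 and 3, Nefl was at 2.43% and 2.81% of Tubb3 and Nefm at 3.75% and 4.82%. The Nefl and Nefm values may not be independent, if the exons that were counted share bases as the gene models above do. The same library was the one with the high diencephalon genes, and the part of that tissue in these values was not tested.

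With knockout replicate 2 left out, 8 of the 10 genes were lower in the germline knockout past the thresholds. In that fit 4.58% of all 14008 genes tested were lower, so low calls were more frequent for all genes as well. Mapt had the lowest value with -1.33 ± 0.22 (log2, SE), followed by Gap43 with -1.10 ± 0.28 and Dcx with -1.05 ± 0.15. Stmn2 (-0.99), Dpysl3 (-0.89), Ina (-0.84), Map2 (-0.73) and Tubb3 (-0.73) also passed. Nefl (-0.12) and Nefm (0.09) did not pass. Limma adjusted p was 0.122 at its lowest, and none of the 8 was under 0.05 after adjustment over all genes. The median of the 10 was -0.86 against -0.04 over all genes tested. Without knockout replicate 1 the median was 0.05 and 0 genes passed, so the sign of the group value depended on which library was left out.

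**Figure D2:**
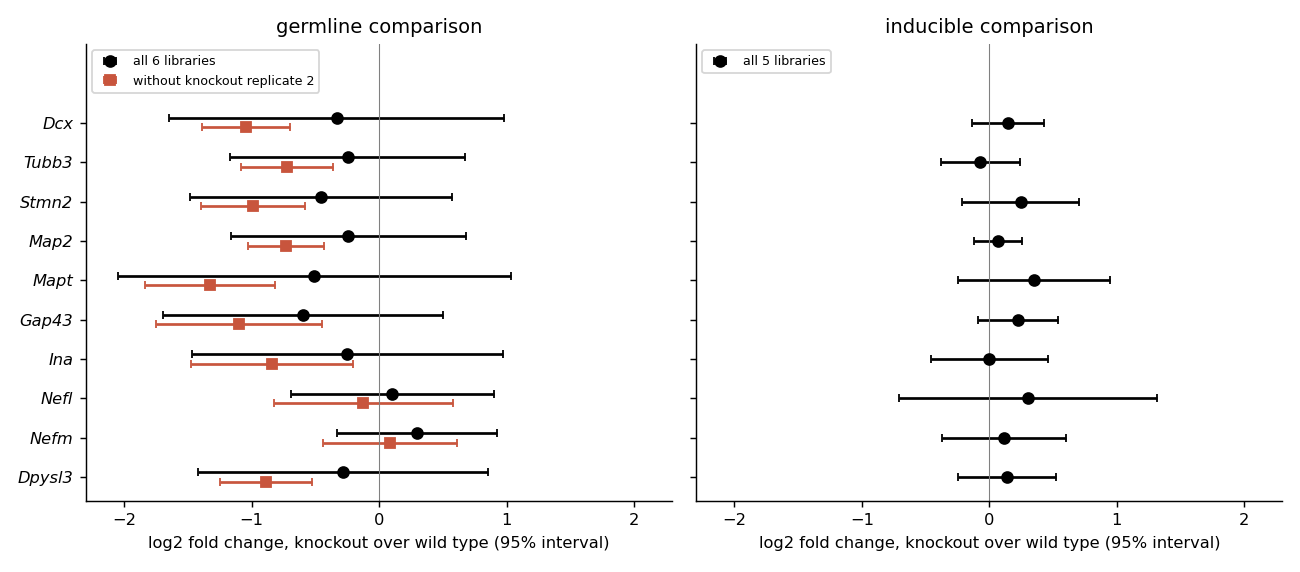
Log2 fold change of knockout over wild type (horizontal axis) for the 10 genes, with 95% intervals from limma. The germline panel sets the fit of all 6 libraries (circles, every interval crossing 0) beside the fit without knockout replicate 2 (squares, 8 intervals below 0), and the inducible panel shows all 5 libraries, with every interval crossing 0.

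The 10 genes moved with other neuronal genes from library to library. Taking each gene's log2 difference from its wild-type mean, the median over the 10 was -0.95, 0.73 and -0.76 in knockout replicates 1 to 3, and 0.05, 0.23 and -0.18 in wild type. Over 12 genes of neuronal RNA binding and identity, led by Elavl3 and Elavl2, it was -0.83, 0.90 and -0.53 in knockout. For 7 deep-layer cortical neuron genes it was -0.98, 1.21 and -0.64. Among the latter, Tbr1, a transcription factor of early-born cortical neurons, measured 2400.5, 3354 and 2951 in wild type and 848, 6293 and 1624 in knockout. The radial glial list of 12 progenitor genes had medians of 0.15, 0.11 and 0.04, over genes that lay in both directions, and Fabp7 (-0.80 ± 0.24) and Ccnd2 (-0.92 ± 0.25), a lipid-binding protein and a cyclin of progenitors, fell past the thresholds and Vim (0.11) did not pass. By summed counts, led by Ccnd2 and Vim, the radial glial list stood at 64721, 61849 and 68094.5 in knockout against 73254 to 81832 in wild type. Ccnd2, a large part of each sum, measured 35206, 32666 and 22332 in wild type and 13382.5, 13788 and 20528 in knockout. Vim measured 15627, 15978 and 17387 in wild type and 20385, 14754 and 18173 in knockout. The lower sums therefore do not stand for the whole list. Of that list, 8 of 12 genes had a fitted value above 0, among them Hes1 (0.73 ± 0.40) and Sox2 (0.36 ± 0.24), both highest in knockout replicate 2 and neither past the thresholds. Cranial mesenchyme lay the other way, at 1.71, -5.13 and 0.81, with Col3a1 at 2387, 1838 and 4037 in wild type and 8253, 2.46 and 4489 in knockout. Genes of hypoxia and glycolysis summed to 67956, 97210 and 27712 in knockout against 23276 to 24316 in wild type, and 8 of 12 rose past the thresholds, Ldha (1.02 ± 0.27) and Pgk1 (0.85 ± 0.28) among them. Of the 12, 0 had a limma adjusted p under 0.05. Without knockout replicate 2, 8 of the 12 neuronal identity genes, 5 of the 7 deep-layer genes and 2 radial glial genes were lower past the thresholds. In the same fit 7 of the 8 cranial mesenchyme genes, 6 of the 8 diencephalon genes and 8 of the 12 hypoxia and glycolysis genes were higher. Of all 14008 genes tested there, 4.58% were lower and 587 genes were higher. With knockout replicate 2 kept, 0 neuronal identity, deep-layer, cranial mesenchyme or diencephalon genes passed. The hypoxia and glycolysis list was high in replicates 1 and 2, where the median of the 10 genes was -0.95 and 0.73. The part of hypoxia, tissue composition, dissection or RNA quality in the values of the 10 genes was not tested.

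**Figure D3:**
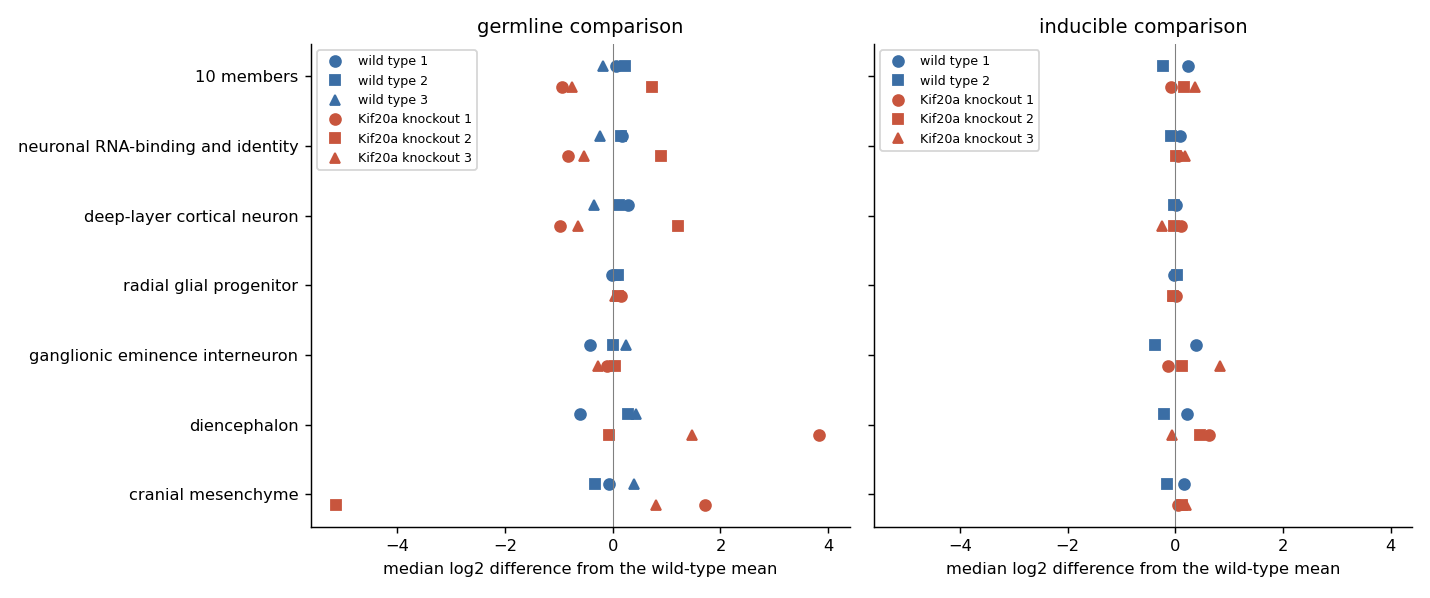
Median log2 difference from the wild-type mean (horizontal axis) of the 10 genes and of 6 marker lists in each germline and inducible library. In the germline panel knockout replicate 2 (square) has the highest neuronal and deep-layer medians and the lowest cranial mesenchyme median, -5.13, while radial glial medians stay between -0.02 and 0.15.

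The pathway was widened to 45 further genes of neuronal tubulins and microtubule-associated proteins, collapsin response mediator proteins, intermediate filaments and growth cone membrane and actin proteins, of which 43 were tested. None passed in the germline comparison, none had an unadjusted p of at most 0.05, and the median log2 fold change was -0.12, with 12 above 0. The lowest were Stmn3, a relative of Stmn2 (-0.49 ± 0.35), Gpm6a, a membrane glycoprotein of neurites (-0.47 ± 0.65), and the heavy neurofilament gene Nefh (-0.40 ± 0.43). Camsap3 (0.28 ± 0.26), which binds microtubule minus ends, Mapre3 (0.26 ± 0.43), which binds plus ends, and Dpysl4 (0.23 ± 0.20) were the highest. Without knockout replicate 2 the median of the 43 was -0.48, and 4.58% of all genes tested were lower past the thresholds. Of the 43, 12 were lower in that fit and 0 higher. They included Tubb4a, Dclk1, Stmn3, Kif5c, Crmp1, Gprin1, Gpm6a, Gpm6b, L1cam, Nrcam and Cntn2. Of these, the adhesion molecule Cntn2 measured 1953, 1954 and 1919 in wild type and 826, 3676 and 1192 in knockout, and the doublecortin relative Dclk1 4013, 4582 and 4038 and 2467, 7159.7 and 2701. Both lay below every wild-type library in knockout replicates 1 and 3 and above it in replicate 2. Tuba1a, the most abundant of the 45, measured 81167, 76883 and 63075 in wild type and 50389, 62616 and 54855 in knockout (-0.40 ± 0.18, limma adjusted p = 0.779). Its 3 knockout libraries lay below every wild-type library, replicate 2 included but by little. Marcksl1 also did not overlap, with 9351, 11374 and 11227 in wild type and 7656, 9069 and 9121 in knockout. Of all 13938 germline genes tested, 13.5% had groups that did not overlap.

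Genes with the profile closest to that of the 10 over the 6 germline libraries were sought among the 10804 other genes whose mean normalized count was 100 or more. Likeness was the root mean square of the log2 difference between a gene's deviations and the median deviations of the 10. The closest was Syp (synaptophysin, a synaptic vesicle protein) at 0.0491, with 703, 737 and 514 in wild type and 348, 1045 and 382 in knockout. Atp9a (0.0633), 2010107G23Rik (0.0682), Usp29 (0.0836), Gp1bb (0.0848), Hist3h2bb-ps (0.0855), Mras (0.0869) and Atcay (0.0955) came next, against a median of 0.561 over all candidates. Of the 10 themselves, Stmn2 (0.104), Dpysl3 (0.110) and Map2 (0.114) lay nearest to their median profile. Tubb3 followed at 0.139, Dcx at 0.262, Gap43 at 0.267, Mapt at 0.341 and Ina at 0.348, and Nefl (0.483) and Nefm (0.522) lay farthest from it. The points share libraries, so these distances describe the 6 libraries only.

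In the inducible comparison none of the 10 genes passed the thresholds either. The groups overlapped for all 10, where 22.6% of all 14081 genes tested had groups that did not overlap, and 0.49% were lower and 0.802% higher past the thresholds. The median log2 fold change of the 10 was 0.14, against -0.0019 over all genes tested, and 9 were above 0. By the median deviation of the 10, the knockout libraries lay closer together here than in the germline comparison, and the wild-type libraries did not. This median was 0.24 and -0.24 in wild type and -0.07, 0.16 and 0.37 in knockout. In the germline libraries it was 0.05, 0.23 and -0.18 in wild type and -0.95, 0.73 and -0.76 in knockout. Knockout replicate 3 was the highest library for all 10 genes, and wild-type replicate 2 the lowest for 8.

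Of the microtubule genes, Dcx measured 15755 and 13041 in wild type and 15034, 14429 and 18384 in knockout, a log2 fold change of 0.15 ± 0.12 (SE, interval -0.14 to 0.43, limma adjusted p = 0.884). Map2 had the narrowest interval of the 10, with 17102 and 14754 in wild type and 16179, 16096 and 17750.3 in knockout (0.07 ± 0.08, interval -0.12 to 0.25). Mapt, at 4318 and 2585 in wild type and 3298, 4276 and 5493 in knockout, had the highest fitted value of the 10 (0.35 ± 0.25, interval -0.24 to 0.95). Tubb3 was the gene with a value below 0, at 20761 and 17444 in wild type and 15558, 18151 and 21138 in knockout (-0.07 ± 0.13, interval -0.38 to 0.24). Its lowest library was knockout replicate 1 and its highest knockout replicate 3. Stmn2 measured 5024 and 3309 in wild type and 3948, 5117 and 5614 in knockout (0.25 ± 0.20, interval -0.21 to 0.71). The growth cone gene Gap43 had the lowest p of the 10, with 2009 and 1541 in wild type and 1791, 2188 and 2235 in knockout (0.23 ± 0.13, limma adjusted p = 0.863). For Dpysl3 the values were 20965 and 15353 in wild type and 16759.8, 19726 and 23342 in knockout (0.14 ± 0.16, interval -0.25 to 0.52). Knockout replicate 3 lay above both wild-type libraries in each of these genes, and knockout replicate 1 lay below wild-type replicate 1.

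Among the filament genes Nefl varied most. It measured 419 and 167 in wild type and 205, 398 and 430.1 in knockout, so the wild-type libraries alone differed 2.50-fold and the interval ran from -0.71 to 1.31. Nefm was at 1021 and 719 in wild type and 721, 976 and 1137 in knockout (0.12 ± 0.21), and Ina at 4514 and 3153 and 3068, 3739 and 4683 (0.00, interval -0.46 to 0.46). All 3 had wild-type replicate 2 and knockout replicate 1 as the lowest libraries. With wild-type replicate 1 left out, Mapt (0.72) and Nefl (0.96) were higher past the thresholds, with limma adjusted p of 0.763 and 0.784. In that fit 1.78% of all genes tested were higher, and the 1 remaining wild-type library was assumed to vary like the others. The median of the 10 was then 0.37, and without wild-type replicate 2 it was -0.07, with 8 of 10 below 0.

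**Figure D4:**
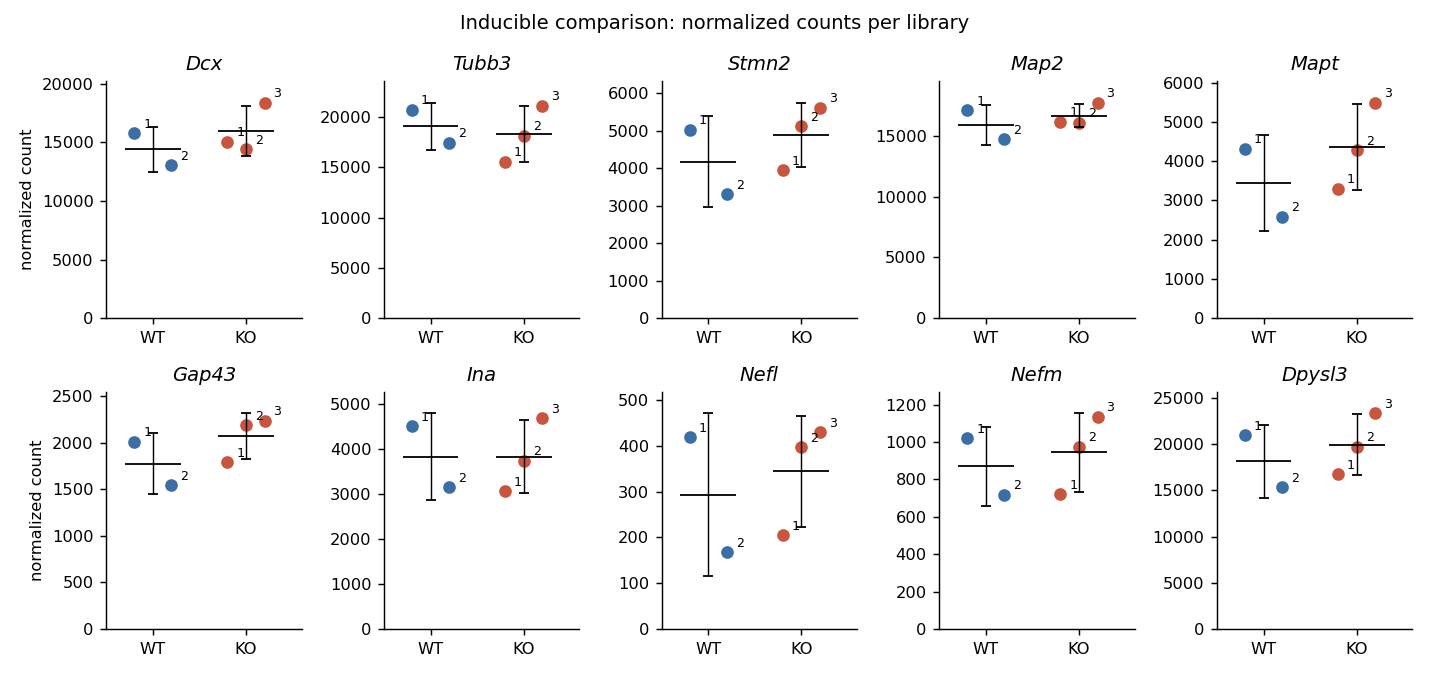
Normalized counts (vertical axis, from 0) of the 10 genes in each inducible library, with wild type (WT, n = 2) and knockout (KO, n = 3) side by side, replicate numbers beside the points, group means as lines and bars of ±1 SD. The groups overlap for all 10 genes and knockout replicate 3 is the highest library in each panel.

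Set against Tubb3 of the same library, 5 of the other genes were higher in every inducible knockout library than in every wild-type library. Dcx was at 96.6%, 79.5% and 87.0% of Tubb3 in knockout against 75.9% and 74.8% in wild type. Gap43 was at 11.5%, 12.1% and 10.6% against 9.68% and 8.84%, and Dpysl3 at 108%, 109% and 110.4% against 101% and 88.0%. Stmn2 and Mapt also did not overlap, whereas Map2, Ina, Nefl and Nefm did. Of all 14080 other genes tested, 7.39% had a ratio to Tubb3 that was higher in every knockout library. The ratios were chosen after the values were seen, share the Tubb3 value and are given as a description. Tubb3 had the lowest fitted value of the 10 in this comparison (-0.07), which raises such ratios in knockout. In the germline libraries the ratios of all 9 genes overlapped between the groups.

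In the inducible libraries some cell type genes came in the library order of the 10 and others did not. Ganglionic eminence interneuron genes, led by Dlx1 and Gad2, summed to 11130 and 5520 in wild type and to 6318, 7654 and 14244 in knockout. From highest to lowest, the libraries came in the same order as by the median of the 10. Isl1, a transcription factor of motor, sensory and some ventral neurons, was at 837 and 398 in wild type and 454, 752 and 964 in knockout, again in that order. The peripheral sensory neuron list that holds Isl1 had medians of -0.11 and 0.11 in wild type and -0.07, 0.37 and 0.14 in knockout. These medians, over the 4 genes tested, did not follow that order. In the germline libraries Isl1 was at 249, 697 and 475 in wild type and 489.5, 412 and 415 in knockout, not in the order of the 10 there. Neuronal identity genes lay at 0.09 and -0.09 in wild type and 0.05, 0.01 and 0.17 in knockout. Deep-layer genes lay at 0.02 and -0.02 in wild type and 0.10, -0.03 and -0.24 in knockout. They were thus lowest in knockout replicate 3, where the 10 were highest. Genes of telencephalon identity were also lowest there, at -0.51. Radial glial genes lay between -0.05 and 0.03 in all 5 libraries. The part of ventral tissue in the values of the 10 was not tested. The Y-linked gene Kdm5d was at 0 in both wild-type libraries and at 1259 to 1386 in knockout, and Ddx3y at 0.98 and 1.07 in wild type and 393, 2.00 and 188 in knockout, so Ddx3y was near 0 in knockout replicate 2. By Kdm5d, sex and genotype cannot be told apart in this comparison. In the germline libraries Kdm5d was near 0 in wild-type replicate 2 and knockout replicates 1 and 2.

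In the wider list, 0 of 43 genes passed in the inducible comparison, 2 had an unadjusted p of at most 0.05, where 846 of all 14081 genes tested did, and the median log2 fold change was 0.05, with 31 above 0. That share is no higher than over all genes. The 2 were Gpm6a (0.34 ± 0.12) and Gpm6b (0.20 ± 0.07), related membrane proteins of neurites. Nefh (0.62 ± 0.36) had the highest value. Tppp3 (-0.44 ± 0.33), a tubulin-binding protein, Map1a (-0.15 ± 0.09) and Cntn2 (-0.12 ± 0.08) were the lowest. Cntn2 measured 3723 and 3376 in wild type and 3534, 3034 and 3266 in knockout, and its groups overlapped. Nefh was at 20.7 and 10.8 and 19.4, 23.0 and 29.6, levels close to the filter of 10 normalized counts. Tuba1a measured 134825 and 123990.0 in wild type and 116837, 134268 and 143887 in knockout (0.02 ± 0.11).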

How the data were processed

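Poly(A) RNA of 11 E12.5 forebrain libraries was prepared with a TruSeq kit and sequenced on a HiSeq2000. The authors used TopHat (1.2.0 in the submitters' processing notes, a later version in the study's methods) with mm9, summed reads over the RefSeq exons of each gene and scaled the libraries with edgeR (TMM). What they deposited is a signal, 1 table of normalized counts per comparison, not whole numbers, not scaled by length and not on a log scale. They sum to 13048700 to 15551300 (germline) and 24118500 to 24497300 (inducible), which is not the depth. No read counts could be recovered, so no counting intervals are given. The tables were normalized separately, and no level was compared between them.

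Values were analysed as log2(normalized count + 1) with limma 3.58.1 in R 4.3.3 (lmFit, eBayes with trend, two-sided), for genes with a mean of at least 10 (13938 and 14081). Thresholds were a fold change of 1.5 and an unadjusted p of 0.05. Benjamini-Hochberg adjustment ran over all genes tested. Fold changes understate those of low genes. The steps were tested on simulated data. Columns of the authors' own fold changes or p-values were not used. The 10 genes and the lists were chosen with earlier results of these data known. Named genes are the 10, Kif20a, wider-list genes past the thresholds or among the 3 highest or lowest, the leading and passing genes of marker lists and the 8 genes closest in profile. Others (Tbr1, Hes1, Sox2, Isl1, Tuba1a, Marcksl1, Gpm6b, Cntn2 and Dclk1 values) were named after their values were seen. Some genes that this rule takes in are not reported here. Alternatives were other pseudocounts, no filter, quantile and median-of-ratios scaling, array weights, a replicate block and leaving out each library.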

Additional observations from a re-analysis of the deposited data

How the results depend on the processing

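Alternatives were pseudocounts of 0.1 and 10, no filter, quantile and median-of-ratios scaling, array weights, a replicate block and leaving out each library. Array weights, which gave germline knockout replicate 2 a weight of 0.18, brought 8 of the 10 genes and 10 wider genes past the germline thresholds. Leaving out 1 library moved these counts from 0 to 8 and from 0 to 12, with 8 and 12 reached without knockout replicate 2. In the inducible comparison they moved from 0 to 2 and from 0 to 1, the higher values without wild-type replicate 1. The median of the 10 ranged from -0.86 to 0.05 (germline) and from -0.07 to 0.37 (inducible).

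Signs of single genes turned when a library was left out. In the germline comparison the log2 fold change ranged from -1.05 to 0.13 for Dcx, -0.73 to 0.075 for Tubb3, -0.73 to 0.065 for Map2, -0.84 to 0.12 for Ina, -0.12 to 0.41 for Nefl and -0.89 to 0.038 for Dpysl3. In the inducible comparison it ranged from -0.19 to 0.056 for Tubb3, -0.054 to 0.55 for Stmn2, -0.038 to 0.18 for Map2, -0.019 to 0.72 for Mapt, -0.26 to 0.26 for Ina, -0.36 to 0.96 for Nefl, -0.14 to 0.37 for Nefm and -0.085 to 0.36 for Dpysl3. Inducible Ina was at -0.0039 with array weights and at -0.16 with the replicate block, and Nefm at -0.030 with the block. With all libraries kept, the pseudocounts, the filter and both scalings turned no sign and brought none of the 10 past the thresholds, and the scalings moved the median of all genes by under 0.1.

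The replicate numbers were taken from the labels and columns and not otherwise checked, and whether they pair littermates is not known. Deviations of same-numbered germline libraries correlated at -0.12, 0.31 and 0.25 and those of inducible libraries at -0.35 and -0.05. With 2 or 3 libraries in a group, deviations from the group mean depend on each other, so these correlations cannot decide the question. With the replicate block 0 of the 10 genes passed in either comparison, as without it. All genes past the germline thresholds numbered 93 lower and 289 higher, against 484 and 560 with array weights, 642 and 587 when knockout replicate 2 was left out, 403 and 617 for replicate 3, and 55 and 146 for replicate 1. The 3 against 3 and 2 against 3 libraries limit what can be detected, and the interval of germline Mapt ran from -2.05 to 1.03.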

Other observations

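Cajal-Retzius and intermediate progenitor genes shared the library pattern of the cytoskeletal genes by their summed levels, and not in every library by their medians. The 7 Cajal-Retzius genes, led by Reln, the extracellular signal of the marginal zone, summed to 5037 to 8249 normalized counts in germline wild type and to 3093, 13460 and 3586 in knockout replicates 1 to 3. The 7 intermediate progenitor genes, led by Neurog2 and Eomes, summed to 6308 to 7764 in wild type and to 5189, 11508 and 5327 in knockout. By these sums replicates 1 and 3 lay below and replicate 2 above all wild-type libraries, but the genes of each list did not move together. The median log2 difference from the wild-type mean was -0.48, 0.78 and -0.13 for Cajal-Retzius genes, against -0.27 to 0.40 in wild type, and -0.21, -0.03 and -0.33 for intermediate progenitor genes, against -0.12 to 0.11. No gene of either list passed the thresholds (0). Without knockout replicate 2, where 4.58% of all genes tested were lower, 2 Cajal-Retzius genes and 1 intermediate progenitor gene were lower. Ganglionic eminence interneuron genes did not share this, with 3490 to 4940 in wild type and 4012, 4387 and 3530 in knockout. The 6 endothelial genes summed to 1132 to 2281 in wild type and to 2413, 575 and 1785 in knockout, again with 0 past the thresholds.

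In the inducible libraries the Cajal-Retzius genes summed to 10010 and 8622 in wild type and to 8722, 8708 and 8123 in knockout, and intermediate progenitor genes to 13250 and 14493 against 13838, 13401 and 12730. None passed the thresholds. Endothelial genes summed to 4419 and 3167 in wild type and to 3383, 3966 and 4780 in knockout, from highest to lowest in the same library order as the median of the 10 cytoskeletal genes. Olig3, a transcription factor of diencephalic and hindbrain progenitors, rose past the thresholds, with 9.88 and 3.29 in wild type and 109, 175 and 8.45 in knockout, and its limma adjusted p was 0.825. Knockout replicate 3 lay below wild-type replicate 1, and without knockout replicate 2 Olig3 did not pass.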
